A study of Mus musculus with 23 samples.

Results

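Promoter peaks are the accessible regions that the authors' peak table assigns to the promoter of a gene. They were taken as every row of the ATAC-seq count table whose type is promoter, which gave 18011 of the 51412 peaks (35.0%). The other peaks lay in introns (15272), between genes (14703) or in exons (3426). The promoter peaks named 13555 genes, of which 10488 had 1 promoter peak, 3067 had 2 or more, and the most for a gene was 16. Their accessibility was described in the 8 ATAC-seq libraries and set beside RNA of the same gene in 15 RNA-seq libraries, where 11164 of the 13555 genes (82.4%) had an RNA row.

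ATAC-seq measures how often a transposase inserts at a stretch of DNA, and the counts of a peak are the reads that fell in it. The 4 ATAC-seq groups were type 1 innate lymphoid cells (ILC1) of the liver, ILC1 of the salivary gland, natural killer (NK) cells of the spleen and NK cells of the liver, with 2 libraries of 50000 sorted mouse cells in each group. The labels disagree on the gates. The cell type field gives GzmC+GzmcFM+ cells for both ILC1 groups, that is cells that stain for granzyme C and carry a granzyme C fate-map label, and S1pr5eGFP+ cells, which carry a green reporter of S1pr5, for both NK groups. The design text instead names NK1.1+NKp46+ cells split by the surface integrins CD49a and CD49b, with CD49a on ILC1. Under the reporter gates the Gzmc and S1pr5 peaks, and under the integrin gates the Itga1 peaks, belong to a gene that defined the sort. The RNA-seq libraries were all from liver and held 3 ILC1 populations from a fate-map cross: current granzyme C expression (GzmC+GzmcFM+, DP, 4 libraries), past expression alone (GzmC-GzmcFM+, FMSP, 4 libraries) and neither (GzmC-GzmcFM-, DN, 3 libraries), and S1pr5eGFP+ NK cells (NK, 4 libraries), from 6 mice. Strain and age are not given in the sources used here. The titles number the 2 libraries of an ATAC-seq group as mouse replicates, without saying whether each is a single animal or a pool, so p-values measure the spread between these libraries, which may be technical.

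Group 1 innate lymphocytes comprise NK cells, which circulate and kill with perforin and granzymes, and ILC1, which reside in organs including liver and salivary gland and are known for cytokines and death ligands. Eomes is the T-box factor of NK cells, and Hobit, encoded by Zfp683, is a factor of tissue-resident lymphocytes. A promoter is the DNA around a transcription start where RNA polymerase assembles. Many promoters of broadly used genes lie in CpG islands, stretches rich in CG dinucleotides that are open in most cells, whereas CpG-poor promoters more often serve genes of particular cell types.

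The 300-base RefSeq promoters (GRCm38.p6, 250 bases before to 50 bases after the listed start) of 9 genes that the results turn on are given in the direction of transcription, with each CG dinucleotide in capitals. Cxcr6, Gzmc, Il2 and Tnf had higher accessibility in ILC1, Il7r differed between the organs, Cma1, Gzmm and Klf2 had lower accessibility in ILC1, and Pald1 differed in liver RNA with no call at its promoter in liver.
Cxcr6, chr9:123806227-123806526, plus strand: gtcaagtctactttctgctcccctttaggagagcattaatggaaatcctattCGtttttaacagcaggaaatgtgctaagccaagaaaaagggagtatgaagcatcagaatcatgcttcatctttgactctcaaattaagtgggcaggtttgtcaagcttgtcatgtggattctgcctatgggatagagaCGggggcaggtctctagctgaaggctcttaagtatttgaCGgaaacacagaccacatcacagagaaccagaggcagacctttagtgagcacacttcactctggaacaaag
Gzmc, chr14:56234608-56234907, minus strand: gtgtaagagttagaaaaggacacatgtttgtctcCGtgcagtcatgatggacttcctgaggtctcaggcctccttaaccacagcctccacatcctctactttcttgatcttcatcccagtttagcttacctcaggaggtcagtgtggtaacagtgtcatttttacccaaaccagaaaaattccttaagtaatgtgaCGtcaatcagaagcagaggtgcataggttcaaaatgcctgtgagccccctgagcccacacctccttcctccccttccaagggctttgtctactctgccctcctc
Il2, chr3:37125905-37126204, minus strand: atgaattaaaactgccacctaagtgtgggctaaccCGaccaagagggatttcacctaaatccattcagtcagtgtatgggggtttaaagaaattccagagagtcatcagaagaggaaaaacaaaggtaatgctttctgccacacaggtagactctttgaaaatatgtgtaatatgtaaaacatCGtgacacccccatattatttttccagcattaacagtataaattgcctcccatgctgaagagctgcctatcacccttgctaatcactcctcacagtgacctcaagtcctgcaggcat
Tnf, chr17:35201958-35202257, minus strand: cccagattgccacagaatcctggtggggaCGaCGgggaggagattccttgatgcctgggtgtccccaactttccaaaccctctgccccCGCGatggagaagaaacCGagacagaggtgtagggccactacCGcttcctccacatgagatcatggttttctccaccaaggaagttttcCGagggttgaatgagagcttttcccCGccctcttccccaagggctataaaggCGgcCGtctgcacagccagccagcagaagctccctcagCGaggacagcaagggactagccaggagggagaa
Il7r, chr15:9529827-9530126, minus strand: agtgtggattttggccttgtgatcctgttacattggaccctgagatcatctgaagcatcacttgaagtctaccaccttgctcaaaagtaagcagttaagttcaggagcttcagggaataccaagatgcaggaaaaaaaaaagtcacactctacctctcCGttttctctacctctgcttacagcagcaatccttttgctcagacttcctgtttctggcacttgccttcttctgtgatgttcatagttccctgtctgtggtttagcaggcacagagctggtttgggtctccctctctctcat
Cma1, chr14:55944626-55944925, minus strand: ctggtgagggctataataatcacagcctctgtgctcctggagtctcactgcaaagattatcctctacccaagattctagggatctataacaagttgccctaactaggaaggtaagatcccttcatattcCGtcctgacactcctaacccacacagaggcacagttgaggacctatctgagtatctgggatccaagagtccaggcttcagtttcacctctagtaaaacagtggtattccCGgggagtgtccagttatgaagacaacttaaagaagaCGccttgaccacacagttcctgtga
Gzmm, chr10:79688770-79689069, plus strand: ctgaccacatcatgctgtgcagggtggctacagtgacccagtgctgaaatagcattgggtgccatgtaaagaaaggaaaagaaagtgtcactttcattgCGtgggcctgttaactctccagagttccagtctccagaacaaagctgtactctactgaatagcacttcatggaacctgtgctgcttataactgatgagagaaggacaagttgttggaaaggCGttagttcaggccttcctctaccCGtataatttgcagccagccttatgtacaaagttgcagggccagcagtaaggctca
Klf2, chr8:72318812-72319111, plus strand: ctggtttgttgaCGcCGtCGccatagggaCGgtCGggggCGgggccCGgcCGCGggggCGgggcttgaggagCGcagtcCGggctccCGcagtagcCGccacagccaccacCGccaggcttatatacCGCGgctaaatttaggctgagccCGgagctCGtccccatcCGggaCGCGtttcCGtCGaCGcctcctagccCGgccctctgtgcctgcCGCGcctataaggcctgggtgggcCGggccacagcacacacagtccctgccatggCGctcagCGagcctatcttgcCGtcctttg
Pald1, chr10:61383290-61383589, minus strand: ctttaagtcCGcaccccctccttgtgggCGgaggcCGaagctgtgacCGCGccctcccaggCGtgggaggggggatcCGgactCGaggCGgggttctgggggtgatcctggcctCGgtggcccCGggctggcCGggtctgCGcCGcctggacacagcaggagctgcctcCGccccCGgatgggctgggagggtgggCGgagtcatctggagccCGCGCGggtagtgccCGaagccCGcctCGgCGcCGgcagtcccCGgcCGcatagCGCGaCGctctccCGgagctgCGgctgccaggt

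The 9 promoters differed in CpG content. Cxcr6, Cma1 and Gzmm held 3 CG dinucleotides each, Gzmc and Il2 held 2 each, Il7r held 1 and Tnf held 11, and all 7 fell in the low-CpG class defined for the class comparison. Klf2 and Pald1 held 32 each and fell in the high-CpG class. A search of both strands for 6 short motifs found the RUNX core TGTGGT in Cxcr6, Gzmc, Il7r, Cma1 and Gzmm, which include promoters with higher and with lower accessibility in ILC1. The GC box GGGCGG was present in Tnf, Klf2 and Pald1, and TATAAA in Il2 and Tnf. None of the 9 held the AP-1 letters TGANTCA, the T-box letters AGGTGNGA or the ETS letters CCGGAAG. Among all 32851 RefSeq promoters of this length the RUNX core was in 16.8%, AP-1 in 7.81%, the T-box letters in 5.43%, the ETS letters in 8.86%, the GC box in 35.7% and TATAAA in 13.6%. Promoter peaks at least 2-fold higher in ILC1 held the listed start of 75 promoters, and those 2-fold lower held that of 87. In these 2 sets the RUNX core was in 21.3% and 17.2%, the T-box letters in 5.33% and 6.90%, and the ETS letters in 4.00% and 3.45%. Over all 7430 promoters whose start lay in a promoter peak the shares were 13.0% for the RUNX core, 4.67% for the T-box letters and 18.8% for the ETS letters. Over the low-CpG promoters among them they were 22.8%, 6.36% and 8.04%. These matches describe letters in a window and do not show binding.

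Promoter peaks were wider and stronger than other peaks. Their median width was 1237 bases against 895 bases for other peaks, and their median accessibility was 17.5 CPM per kb of peak against 8.01. CPM here means counts of a peak relative to the library's TMM-scaled total over all peaks, per 1000000, and CPM per kb divides by the peak's width. The type label covered more than the starts in the RefSeq table, which lists 1 start per gene. Of the 18011 promoter peaks, 7629 held the listed start of the gene they name, 1385 held that of another gene alone and 8997 held none. Other peaks held a listed start in 1.10% of cases. Among 4368 promoter peaks without a listed start whose gene is in the table, the median distance to that start was 8547 bases, with 15.1% within 1 kb and 47.3% over 10 kb away. Peaks without a listed start were weaker, with 10.9 CPM per kb against 25.3 for peaks holding the start of their gene. By promoter sequence the median was 29.2 CPM per kb in the high-CpG class, 23.9 in the intermediate class and 16.2 in the low-CpG class. The high class asks for an observed over expected CpG ratio of at least 0.75 with at least 55% GC, and the low class for a ratio of at most 0.48.

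A promoter peak was more frequent the more RNA its gene had in liver. Of genes with no RNA count in any library 2.78% had a promoter peak. The share was 6.02% for genes whose highest population mean was above 0 and up to 0.1 CPM, 16.4% from 0.1 to 1 CPM, 43.5% from 1 to 10 CPM, 73.7% from 10 to 100 CPM and 79.8% above 100 CPM. For a peak holding the gene's listed start the shares were 0.288%, 1.09%, 5.48%, 23.9%, 54.0% and 57.6% over the same bins. The deposited peak set is shared by all 8 libraries, so the shares do not refer to liver accessibility alone.

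**Figure D1:**
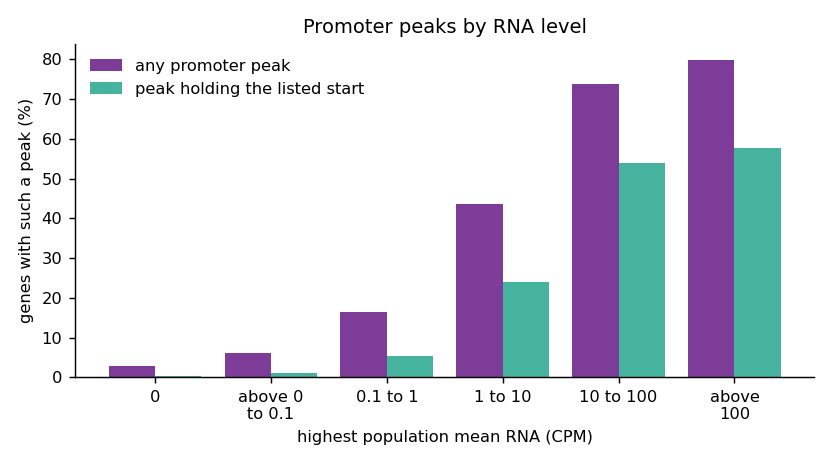
Share of genes with any promoter peak (purple) or with a peak holding the listed start (green), in %, by the highest mean RNA over the 4 liver populations, in CPM. The share with any promoter peak grows with the RNA level, with 2.78% of genes at 0 and 79.8% of genes above 100 CPM.

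Depth and signal differed by organ more than by cell type. Total counts in peaks were 5928045 and 9957335 in liver ILC1, 16058700 and 26944890 in salivary gland ILC1, 14270504 and 11101944 in spleen NK and 6390417 and 5609587 in liver NK. RNA totals lay between 51641248 and 73309063. Promoter peaks took 57.2% and 60.4% of counts in liver ILC1, 61.4% and 61.9% in salivary gland ILC1, 65.2% and 63.8% in spleen NK and 53.6% and 55.4% in liver NK. The mean share was 60.2 ± 2.11% in ILC1 libraries and 59.5 ± 5.85% in NK libraries (SD, n = 4 each), a difference of 0.716 percentage points with a 2-sided exact permutation p of 0.857, where the smallest possible p was 0.0286. Without liver NK replicate 1 the difference was -1.25 points, and without spleen NK replicate 1 it was 2.61 points. The ratio of the strongest to the weakest quintile of promoter peaks, as median CPM, was lowest at 8.36 in liver NK replicate 1 and highest at 26.4 in spleen NK replicate 1. In a principal component analysis of promoter peaks the first component (50.0% of variance) ran from liver to salivary gland libraries, the second (28.6%) set spleen NK apart and the third (10.7%) separated liver ILC1 from liver NK. Depth was nested in organ, and depth and organ cannot be told apart in any comparison between organs.

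**Figure D2:**
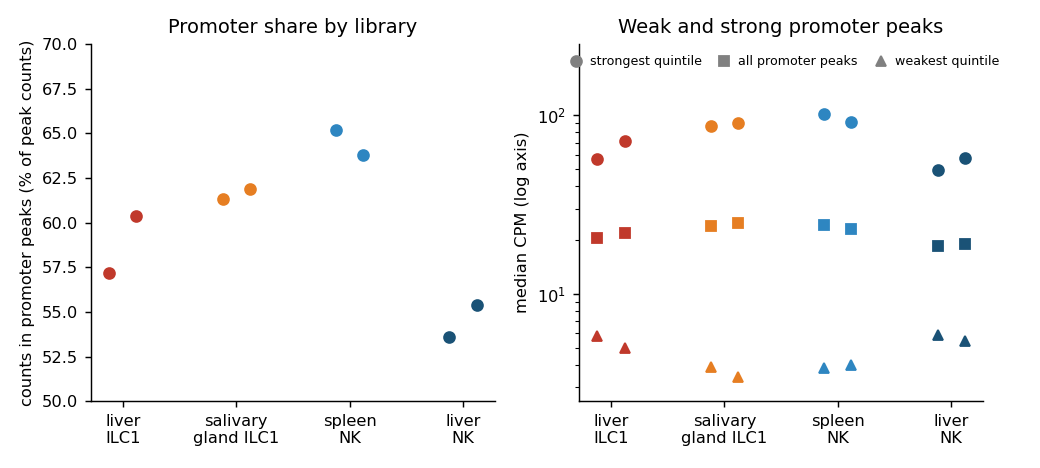
Left, counts in promoter peaks as % of all peak counts in each library. Right, median CPM (log axis) of the strongest quintile, all and the weakest quintile of promoter peaks in each library. Liver NK libraries have the lowest shares, 53.6% and 55.4%, and the smallest gap between strong and weak peaks.

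Both ILC1 groups were first compared with both NK groups. This comparison averages the ILC1 minus NK difference in liver and that between salivary gland ILC1 and spleen NK. A large difference in 1 pair alone can thus give a call, and the second pair differs in organ as well as cell type. Accessibility was higher in ILC1 at 3576 promoter peaks and lower at 2466 of the 17983 tested (19.9% and 13.7%, edgeR quasi-likelihood test, Benjamini-Hochberg adjusted p below 0.05 over all 51292 tested peaks). Over all peaks 21.0% were higher and 23.1% lower. At 2-fold or more, 600 promoter peaks were higher (3.34%, against 5.73% of all peaks) and 748 lower (4.16%, against 10.7% of all peaks). The split of calls depended on scaling: TMM over promoter peaks alone gave 3130 higher and 3330 lower, and cyclic loess gave 3507 and 3589. At 2-fold TMM over promoter peaks alone gave 510 higher and 842 lower. Of the peaks called at 2-fold, 574 of the 600 (95.7%) and 709 of the 748 (94.8%) stayed past the adjusted p threshold in the same direction, with no fold asked, under all 16 alternatives run, which include leaving out each library. Without salivary gland ILC1 replicate 2 the higher calls numbered 2119, and without spleen NK replicate 2 they numbered 2282. Of the 600 higher peaks 551 had the same sign in liver alone, 325 were called higher there and 1 was called lower. In 417 of the 600 (69.5%) the lowest ILC1 library exceeded the highest NK library. Of the 748 lower peaks 732 had the same sign in liver, 380 were called lower there and 0 were called higher. In 388 of the 748 (51.9%) the libraries did not overlap. The liver libraries are part of the pooled comparison, and the peaks were selected by their difference in these 8 libraries. Shared signs and lack of overlap are therefore partly built in, and neither share was computed over all promoter peaks. In bulk libraries, fewer cells with an open promoter and less opening per cell cannot be told apart.

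The promoter of Cxcr6, the receptor for CXCL16 that holds lymphocytes in the liver sinusoids, had the highest log2 difference among the named promoter peaks that were higher in ILC1. The peak over its start (chr9:123806040-123806853) had 25.6 and 26.4 CPM in liver ILC1 and 21.3 and 24.2 CPM in salivary gland ILC1, against 2.46 and 1.66 CPM in spleen NK and 3.92 and 2.41 CPM in liver NK. Every ILC1 library was far above every NK library, in both organs. The log2 difference was 3.23 ± 0.19 (SE, adjusted p = 6.0e-59). A second Cxcr6 peak (chr9:123808415-123809089) showed a difference of 2.45 ± 0.26 (SE, adjusted p = 5.5e-20). A peak assigned to Fyco1, a gene for an adaptor of vesicle transport, lies 35689 bases beyond the second Cxcr6 peak and had 12.7 and 20.0 CPM in liver ILC1 and 40.6 and 43.6 CPM in salivary gland ILC1, against 2.29 and 3.32 CPM in spleen NK and 3.79 and 5.47 CPM in liver NK. Its values were highest in the salivary gland libraries, and the log2 difference was 2.89 ± 0.18 (SE, adjusted p = 3.8e-57). RNA of Fyco1 was not called (0.80 ± 0.26 (SE, adjusted p = 0.093)), and a peak's assignment to a gene is the authors'.

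Granzyme C is a serine protease of cytotoxic granules. The peak over its start (chr14:56234259-56235420) had 12.9 and 20.1 CPM in liver ILC1 and 21.6 and 24.8 CPM in salivary gland ILC1, against 2.78 and 2.83 CPM in spleen NK and 5.87 and 4.50 CPM in liver NK. The libraries of ILC1 and NK cells did not overlap, and the difference was 2.36 ± 0.19 (SE, adjusted p = 5.4e-33). In the salivary gland and spleen pair the difference was larger than in the liver pair, with an interaction (liver minus the other organs) of -1.38 ± 0.39 (SE, adjusted p = 0.0031). Under the reporter gate this gene defined the ILC1 sort. The 2 peaks of Zfp683, which encodes Hobit, had no listed start. The peak at chr4:134052365-134053914 had 22.0 and 37.6 CPM in liver ILC1 and 18.4 and 28.3 CPM in salivary gland ILC1, against 3.77 and 3.42 CPM in spleen NK and 7.57 and 8.53 CPM in liver NK. Its lowest ILC1 library was above its highest NK library, with a difference of 2.31 ± 0.17 (SE, adjusted p = 3.5e-41), and the other peak differed by 2.15 ± 0.15 (SE, adjusted p = 7.1e-46).

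CD49a, encoded by Itga1, is the collagen-binding integrin chain that the design text uses as the ILC1 gate. The peak over its listed start (chr13:115101045-115102305) had 22.4 and 33.7 CPM in liver ILC1 and 66.3 and 71.4 CPM in salivary gland ILC1, against 18.3 and 14.2 CPM in spleen NK and 13.2 and 14.0 CPM in liver NK. Salivary gland ILC1 had the highest values, and liver ILC1 stood above both NK groups, for a difference of 1.57 ± 0.14 (SE, adjusted p = 8.0e-28). Other genes of a 20-gene liver ILC1 list had higher peaks. Ahr, the aryl hydrocarbon receptor, differed by 1.01 ± 0.14 (SE, adjusted p = 5.3e-12) at its stronger peak. Cd200r1, a receptor that restrains myeloid and lymphoid cells, differed by 0.75 ± 0.14 (SE, adjusted p = 6.5e-07), and its relative Cd200r2, which is outside the list, by 1.47 ± 0.18 (SE, adjusted p = 1.1e-14). The list had promoter peaks for 17 of its 20 genes. Of 34 tested peaks 23 were higher and 2 lower in ILC1 (67.6% and 5.88%, against 19.9% and 13.7% of all promoter peaks). Their median log2 difference was 0.61, against 0.05 over all promoter peaks. The 2 lower peaks were 1 of the peaks of Inpp4b, a lipid phosphatase gene (-0.69), and that of Tnfrsf25, the receptor DR3 (-0.38), whose call was lost with DESeq2. In RNA 19 of the 20 genes were higher in liver ILC1, against 2.90% of all tested genes. This list and those below were chosen with earlier results of these data known.

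Among cytokine and chemokine genes 8 of 17 tested promoter peaks were higher in ILC1 and 1 was lower (47.1% and 5.88%, against 19.9% and 13.7% of all promoter peaks). Il2 encodes the T cell growth factor interleukin 2, and the peak over its start (chr3:37125541-37126899) had 50.0 and 58.4 CPM in liver ILC1 and 50.8 and 49.2 CPM in salivary gland ILC1, against 13.2 and 10.7 CPM in spleen NK and 18.5 and 10.1 CPM in liver NK. All 4 ILC1 libraries were within 49.2 to 58.4 CPM and all NK libraries were at or below 18.5 CPM, a difference of 1.98 ± 0.14 (SE, adjusted p = 8.2e-44). Ltb, Tnf and Lta, neighbouring genes of chromosome 17, encode tumour necrosis factor and the lymphotoxins, ligands that shape lymphoid tissue. Ltb (chr17:35193896-35196251) had 68.9 and 92.5 CPM in liver ILC1 and 55.4 and 79.8 CPM in salivary gland ILC1, against 28.6 and 28.0 CPM in spleen NK and 30.4 and 29.0 CPM in liver NK. Tnf, whose peak starts 4018 bases further along, had 52.0 and 62.6 CPM in liver ILC1 and 40.1 and 43.9 CPM in salivary gland ILC1, against 27.7 and 22.7 CPM in spleen NK and 21.3 and 26.7 CPM in liver NK. Lta, another 1967 bases along, had 23.9 and 22.7 CPM in liver ILC1 and 16.5 and 19.7 CPM in salivary gland ILC1, against 10.7 and 8.30 CPM in spleen NK and 6.92 and 8.69 CPM in liver NK. In each of the 3 genes every ILC1 library exceeded every NK library. The differences were 1.35 ± 0.14 (SE, adjusted p = 1.7e-21) for Ltb, 1.00 ± 0.13 (SE, adjusted p = 6.6e-13) for Tnf and 1.26 ± 0.16 (SE, adjusted p = 3.2e-13) for Lta. Csf2, the gene of the myeloid growth factor GM-CSF, differed by 1.01 ± 0.14 (SE, adjusted p = 7.0e-12). Of the 16 genes of the list 13 had promoter peaks. The lower peak belongs to Ccl5, a chemokine gene of cytotoxic cells (-1.12), while its other peak was not called (-0.04). Ifng, the gene of the cytokine that both cell types make, was not called at its start (0.17 ± 0.13 (SE, adjusted p = 0.3)).

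**Figure D3:**
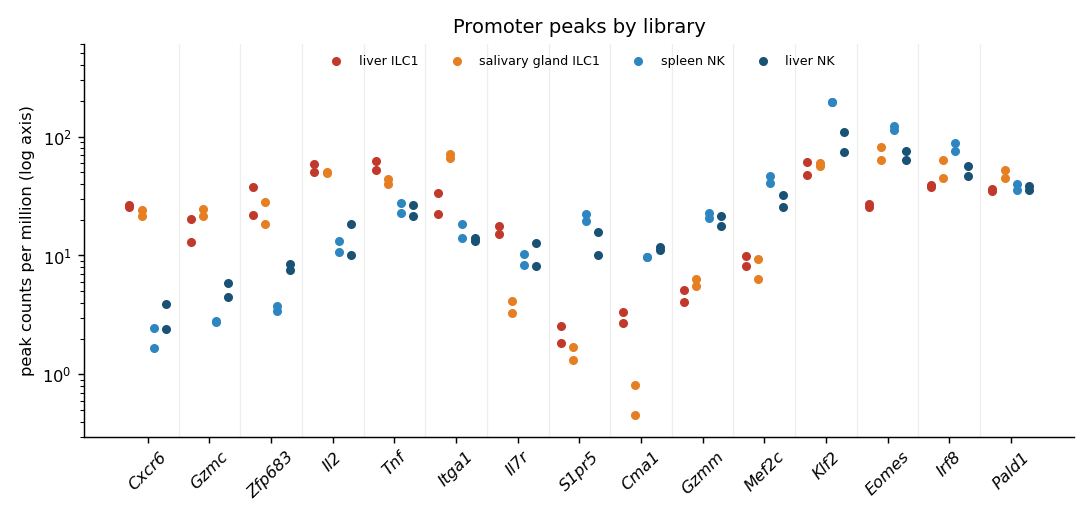
Accessibility of 1 promoter peak of 15 named genes in each of the 8 libraries, in CPM on a log axis. Shown is the peak holding the listed start, or, for Zfp683 and S1pr5, the peak with the largest difference; Cxcr6 to Tnf are higher in all ILC1 libraries, Il7r is lowest in salivary gland ILC1, and S1pr5 to Klf2 are higher in all NK libraries.

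Genes by which lymphocytes leave tissue or recirculate had lower promoter accessibility in ILC1. S1pr5 encodes a sphingosine 1-phosphate receptor that NK cells need to leave tissue. Its peak at chr9:21246276-21246848 had 2.54 and 1.85 CPM in liver ILC1 and 1.71 and 1.32 CPM in salivary gland ILC1, against 22.3 and 19.4 CPM in spleen NK and 10.2 and 15.6 CPM in liver NK. The groups did not overlap, and the difference was -3.19 ± 0.23 (SE, adjusted p = 5.3e-43). A second S1pr5 peak was not called (0.25 ± 0.18 (SE, adjusted p = 0.26)). S1pr1, a related exit receptor, differed by -1.67 ± 0.15 (SE, adjusted p = 6.0e-27). Klf2, the factor that drives S1pr1, had 47.4 and 60.7 CPM in liver ILC1 and 56.3 and 59.9 CPM in salivary gland ILC1, against 197 and 196 CPM in spleen NK and 73.5 and 109.9 CPM in liver NK. Spleen NK had by far the highest values, and the ILC1 libraries were below both NK groups, a difference of -1.26 ± 0.15 (SE, adjusted p = 3.4e-16). Cxcr4, the receptor for CXCL12, differed by -0.92 ± 0.14 (SE, adjusted p = 1.6e-10). Of the 12 egress genes 10 had promoter peaks. Of their 16 peaks 10 were lower and 1 higher (62.5% and 6.25%, against 13.7% and 19.9% of all promoter peaks). The higher one was at Cd69 (0.50), whose product holds S1pr1 inside the cell. In RNA 7 of the 12 were lower in liver ILC1 and none higher, against 3.02% lower and 2.90% higher over all tested genes. The list holds S1pr5, whose reporter gated the NK cells of the RNA libraries. The median log2 difference of the 16 peaks was -0.92.

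Conventional NK genes were lower in ILC1 at 15 of 29 tested peaks (51.7%) and higher at none, with a median log2 difference of -0.39. Over all promoter peaks 13.7% were lower and 19.9% higher. By edgeR 1 of the 29 peaks was higher at an unadjusted p below 0.05, and by DESeq2 none was called higher. Eomes differed between the organs as well as the cell types. Its peak (chr9:118477403-118479687) had 27.1 and 25.7 CPM in liver ILC1 and 63.5 and 81.2 CPM in salivary gland ILC1, against 124 and 112 CPM in spleen NK and 64.1 and 76.2 CPM in liver NK. Liver ILC1 was lowest and spleen NK highest, and salivary gland ILC1 overlapped liver NK, for a pooled difference of -1.06 ± 0.14 (SE, adjusted p = 1.6e-12). Zeb2, a zinc finger repressor needed for NK maturation, had 3 promoter peaks of which the one at chr2:45114497-45115188 differed (-1.79 ± 0.17 (SE, adjusted p = 6.4e-23)) and the other 2 were not called. Cma1 encodes mast cell chymase. The peak over its start had 2.69 and 3.32 CPM in liver ILC1 and 0.821 and 0.453 CPM in salivary gland ILC1, against 9.66 and 9.67 CPM in spleen NK and 11.7 and 11.1 CPM in liver NK. Salivary gland ILC1 was lowest, liver ILC1 next and the NK groups were close to each other, with a difference of -2.94 ± 0.26 (SE, adjusted p = 3.7e-27). Cx3cr1, the fractalkine receptor, differed by -1.13 ± 0.20 (SE, adjusted p = 9.9e-08) at its start. Klrg1, an inhibitory receptor of mature NK cells, was lower at both of its peaks (-1.76 and -0.46). Tbx21, the gene of T-bet, which both cell types need, was not called (-0.16 ± 0.13 (SE, adjusted p = 0.34)). In RNA 17 of the 18 genes of the list were lower in liver ILC1, against 3.02% of all tested genes.

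Granule genes went in both directions. Of 29 tested peaks of the 16 genes 10 were higher and 9 lower in ILC1, with a median of 0.08. These were 34.5% and 31.0%, against 19.9% and 13.7% of all promoter peaks. Granzyme M was lower at all 3 of its peaks, and the peak over its start (chr10:79688550-79689547) had 4.04 and 5.17 CPM in liver ILC1 and 6.36 and 5.56 CPM in salivary gland ILC1, against 20.5 and 22.6 CPM in spleen NK and 21.4 and 17.5 CPM in liver NK. The libraries did not overlap, and the difference was -1.96 ± 0.18 (SE, adjusted p = 3.7e-26). Gzma fell by 0.98 on the log2 scale at its start and Gzmk by 1.13. Perforin, the pore former encoded by Prf1, had 38.9 and 49.9 CPM in liver ILC1 and 76.1 and 78.4 CPM in salivary gland ILC1, against 94.5 and 98.7 CPM in spleen NK and 56.6 and 66.3 CPM in liver NK at its start. Liver ILC1 was lowest, and salivary gland ILC1 lay above liver NK and below spleen NK, and the difference was -0.39 ± 0.14 (SE, adjusted p = 0.013), a call that was lost without liver NK replicate 2. Nkg7, a granule membrane protein of killer cells, differed by -0.71 ± 0.15 (SE, adjusted p = 1.0e-05). Granzyme B, by contrast, was not called at its start (0.29 ± 0.14 (SE, adjusted p = 0.069)), and became a call with library totals alone, with cyclic loess and without liver ILC1 replicate 1 or liver NK replicate 2. Higher in ILC1 were Tnfsf10, the death ligand TRAIL (1.09 and 0.59), Fasl at 1 of its peaks (0.96), Srgn, the granule proteoglycan serglycin (0.39 and 0.65), and Serpinb9, which inhibits granzyme B (0.70).

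Transcription factor genes were higher at 18 and lower at 11 of 71 tested peaks (25.4% and 15.5%, against 19.9% and 13.7% of all promoter peaks), with a median of 0.14. Stat4, the transducer of interleukin 12, was higher at all 3 of its peaks. The peak at chr1:52076181-52077178 had 18.4 and 18.4 CPM in liver ILC1 and 20.7 and 28.9 CPM in salivary gland ILC1, against 4.42 and 4.20 CPM in spleen NK and 7.57 and 4.83 CPM in liver NK. The libraries did not overlap, and the difference was 2.04 ± 0.18 (SE, adjusted p = 9.0e-29), whereas RNA of Stat4 was not called (-0.51 ± 0.23 (SE, adjusted p = 0.28)). Hic1, a zinc finger repressor, differed by 1.16 ± 0.13 (SE, adjusted p = 1.7e-16) at its start. Irf8, a factor of NK cell and myeloid development, had 4 peaks with differences of -0.51 at its start and 0.02, -0.54 and 0.42 elsewhere, of which those of -0.51 and -0.54 were called. Mef2c, a MADS-box factor, is in no list and was chosen after its values were seen. It had 8.23 and 9.85 CPM in liver ILC1 and 6.29 and 9.35 CPM in salivary gland ILC1, against 46.7 and 40.7 CPM in spleen NK and 25.5 and 32.0 CPM in liver NK at its start, with every ILC1 library below every NK library and a difference of -2.05 ± 0.15 (SE, adjusted p = 1.1e-42). Cytokine receptor genes were higher at 4 of 20 peaks (Il2rg, Il21r, Tgfbr2 and Il12rb2) and lower at 3 (both peaks of Il1rl1, the interleukin 33 receptor, and 1 of Il18r1). Both shares were near those of all promoter peaks.

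Ribosomal protein genes were higher at 6 of 27 tested peaks (22.2%) and proteasome genes at 4 of 20 (20.0%), near the 19.9% of all promoter peaks, with none lower. Cell cycle genes were lower at 1 of 19 (Cdc20, 5.26%, against 13.7% of all promoter peaks), with none higher. Their lower peaks numbered 3 with library totals alone, 4 with TMM over promoter peaks alone and 6 with cyclic loess. In these 3 lists no peak in the missing direction had an unadjusted p below 0.05 by edgeR, and DESeq2 called none there. The proteasome calls depended on scaling, with 0 higher and 1 lower under cyclic loess and none in either direction with TMM over promoter peaks alone. Interferon-stimulated genes were higher at 3 of 19 peaks and lower at 3 (15.8% each), near the 19.9% and 13.7% of all promoter peaks. Markers of other cells were measured beside these results. Hepatocyte genes had a promoter peak in 1 of 12 genes, with a summed accessibility of 5.07 to 7.93 CPM in liver ILC1, 1.85 to 3.01 CPM in salivary gland ILC1, 1.27 to 1.88 CPM in spleen NK and 6.53 to 7.88 CPM in liver NK. In RNA 3 libraries were high in hepatocyte markers, all of ILC1, namely DN mouse 2, FMSP mouse 5 and FMSP mouse 6. Of the 11 hepatocyte genes tested in RNA 0 were called higher and 0 lower in liver ILC1. Salivary epithelium markers had peaks in 6 of 14 genes, with summed values of 91.0 to 104 CPM in liver ILC1, 137 to 139 CPM in salivary gland ILC1, 59.4 to 64.4 CPM in spleen NK and 83.8 to 94.5 CPM in liver NK. Krt5, Krt14, Krt8, Aqp5, Elf3, Sox9, Sox10 and Prol1 had none. Of the 9 tested peaks 4 were higher and 1 lower in pooled ILC1 (44.4% and 11.1%, against 19.9% and 13.7% of all promoter peaks). Against liver ILC1, salivary gland ILC1 were higher at 3 of the 9 and lower at 2 (33.3% and 22.2%, against 29.0% and 15.7% of all promoter peaks). T cell markers had peaks in 7 of 14 genes, of which Cd4, Cd8a and Cd8b1 had none, and summed to 190 to 257 CPM in liver ILC1, 266 to 285 CPM in salivary gland ILC1, 313 to 314 CPM in spleen NK and 184 to 214 CPM in liver NK. In RNA 9 of the 14 T cell markers were higher in liver ILC1, against 2.90% of all tested genes. The part of such cells in the differences was not tested.

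In liver alone, where both cell types came from 1 organ, 2471 promoter peaks were higher and 874 lower in ILC1 (13.7% and 4.86%, against 9.83% and 8.85% of all peaks). At 2-fold the numbers were 340 and 386 (1.89% and 2.15%, against 2.68% and 4.62% of all peaks). Cyclic loess called 1068 higher and 1091 lower, and TMM over promoter peaks alone 1364 and 1552. Leaving out liver ILC1 replicate 1 gave 3720 higher calls and 526 at 2-fold, leaving out liver ILC1 replicate 2 gave 668 and 215, with 553 lower calls, leaving out liver NK replicate 1 gave 1014 higher calls, and leaving out liver NK replicate 2 gave 521 lower calls. Of the peaks called at 2-fold, 230 of 340 (67.6%) and 252 of 386 (65.3%) stayed past the adjusted p threshold, with no fold asked, under all 16 alternatives. Among the 10 highest that passed the naming rule was P2rx7, an ATP-gated ion channel, with 31.7 and 36.1 CPM in liver ILC1, against 9.27 and 6.43 CPM in liver NK. The 2 groups did not overlap, and the log2 difference was 2.10 ± 0.25 (SE, adjusted p = 4.2e-15). Cenpn, a centromere protein gene, had 29.6 and 38.0 CPM in liver ILC1, against 7.96 and 5.95 CPM in liver NK and differed by 2.27 ± 0.24 (SE, adjusted p = 8.3e-19). The largest fall named was at a peak assigned to Lim2, a lens gene 4840 bases from the Nkg7 peak. It had 3.89 and 4.68 CPM in liver ILC1, against 38.6 and 45.7 CPM in liver NK, and the difference was -3.27 ± 0.23 (SE, adjusted p = 2.5e-40), while the Nkg7 peak itself was not called in liver (-0.21 ± 0.21 (SE, adjusted p = 0.54)). Fyn, a Src family kinase, had 4.49 and 2.44 CPM in liver ILC1, against 20.6 and 28.8 CPM in liver NK at its peak without a listed start. The difference was -2.89 ± 0.26 (SE, adjusted p = 2.8e-26). Fcgr2b, the inhibitory Fc receptor, differed by -2.35 ± 0.21 (SE, adjusted p = 8.1e-25).

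ILC1 of the salivary gland were set against ILC1 of the liver. Accessibility was higher in salivary gland ILC1 at 5222 promoter peaks and lower at 2820 (29.0% and 15.7%, against 22.8% and 25.9% of all peaks). At 2-fold 880 were higher and 1689 lower (4.89% and 9.39%, against 7.57% and 18.4%). With library totals alone the split was 3101 higher and 4306 lower, with TMM over promoter peaks alone 3715 and 3856, and with cyclic loess 2916 and 3580. The higher calls numbered 2983 without liver ILC1 replicate 1, 2924 without salivary gland ILC1 replicate 1 and 2660 without salivary gland ILC1 replicate 2. Of the peaks called at 2-fold, 799 of 880 (90.8%) and 1238 of 1689 (73.3%) stayed past the adjusted p threshold under all 16 alternatives, again with no fold asked.

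Il7r, the receptor chain for interleukin 7, had lower accessibility in salivary gland ILC1. The peak at chr15:9528012-9528771 had 3.90 and 2.64 CPM in salivary gland ILC1, against 23.3 and 29.9 CPM in liver ILC1, and 9.49 and 9.96 CPM in spleen NK, against 10.6 and 11.3 CPM in liver NK. Salivary gland ILC1 had the lowest and liver ILC1 the highest values, and the NK libraries lay between them. The log2 difference between the ILC1 groups was -3.06 ± 0.26 (SE, adjusted p = 2.0e-30), and the interaction was 2.90 ± 0.36 (SE, adjusted p = 1.4e-13). The peak over the Il7r start differed by -2.14 ± 0.27 (SE, adjusted p = 9.7e-14). Tcf7, the gene of TCF-1, a factor of early and memory lymphocytes, had 8.89 and 10.7 CPM in salivary gland ILC1, against 41.0 and 49.9 CPM in liver ILC1, and 25.2 and 26.1 CPM in spleen NK, against 30.9 and 28.3 CPM in liver NK. Its difference between the ILC1 groups was -2.21 ± 0.19 (SE, adjusted p = 3.5e-28), and that at its start -1.18 ± 0.20 (SE, adjusted p = 3.2e-08). Tnfrsf25 had 3.97 and 5.48 CPM in salivary gland ILC1, against 28.4 and 35.1 CPM in liver ILC1, a difference of -2.73 ± 0.22 (SE, adjusted p = 1.6e-32). Klf3, a repressor related to Klf2, was lower at all 3 of its peaks (-1.67, -0.82 and -3.11).

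Other promoters were higher in salivary gland ILC1. Nr4a2, an orphan nuclear receptor induced by receptor signalling, had 202 and 189.9 CPM in salivary gland ILC1, against 42.5 and 47.3 CPM in liver ILC1, and 135 and 113 CPM in spleen NK, against 85.4 and 117 CPM in liver NK at its stronger peak. Liver ILC1 was lowest, with a difference between the ILC1 groups of 2.12 ± 0.22 (SE, adjusted p = 1.8e-20) and of 1.91 ± 0.21 (SE, adjusted p = 1.9e-18) at its start. Eomes differed in the same direction (1.46 ± 0.20 (SE, adjusted p = 2.0e-11)), as did Itga1 at its start (1.28 ± 0.18 (SE, adjusted p = 3.1e-11)) and 1 peak of Inpp4b (2.71 ± 0.32 (SE, adjusted p = 5.4e-16)). Usp28, a deubiquitinase gene, had 35.2 and 28.0 CPM in salivary gland ILC1, against 1.35 and 2.05 CPM in liver ILC1, and 2.46 and 0.684 CPM in spleen NK, against 4.96 and 3.06 CPM in liver NK. The 2 salivary gland libraries were at 35.2 and 28.0 CPM and the other 6 at or below 4.96 CPM, and the difference was 4.16 ± 0.31 (SE, adjusted p = 2.0e-37). A peak of Atg7, an autophagy enzyme gene, differed by 4.20 ± 0.55 (SE, adjusted p = 3.5e-13), and one of Snx29, a sorting nexin gene, by 3.12 ± 0.25 (SE, adjusted p = 8.9e-34). Among peaks lower in salivary gland ILC1 were those assigned to Immt, a mitochondrial inner membrane gene (-4.03), Tph1, which encodes tryptophan hydroxylase (-3.65), and Nlrp1b, an inflammasome sensor (-3.55), none of which held a listed start.

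NK cells of the spleen were set against NK cells of the liver. Here 7871 promoter peaks were higher in spleen NK and 1836 lower (43.8% and 10.2%, against 20.9% and 19.8% of all peaks), and at 2-fold 1836 and 1021 (10.2% and 5.68%, against 3.87% and 11.9%). This split rested on scaling more than any other. TMM over promoter peaks alone moved the median of all peaks by -0.43 on the log2 scale and gave 3983 higher and 4230 lower. Library totals alone moved it by -0.38 and gave 4622 and 3771, and cyclic loess gave 1321 and 1050. At 2-fold the higher calls numbered 68, 112 and 175 under these 3 scalings. Without liver NK replicate 1 there were 5079 higher and 843 lower calls and 673 lower calls at 2-fold, and without spleen NK replicate 1 there were 914 lower calls. The higher calls at 2-fold numbered 2831 without spleen NK replicate 2 and 2909 without liver NK replicate 2. The promoter median was 0.38, and that of high-CpG promoters was 0.74, with 21.0% of them called at 2-fold higher. Klf2, of the high-CpG class, differed by 1.10 ± 0.21 (SE, adjusted p = 2.3e-06). Larger differences were seen at 4 peaks of Tex14, a germ cell bridge gene, with 1.75, 1.77, 1.82 and 2.40. The strongest Tex14 peak had 114 and 99.0 CPM in spleen NK, against 30.5 and 32.8 CPM in liver NK, although Tex14 RNA reached at most 1.17 CPM in any liver library. Pcx, the pyruvate carboxylase gene, had 117 and 116 CPM in spleen NK, against 33.2 and 40.1 CPM in liver NK at its start, a difference of 1.67 ± 0.21 (SE, adjusted p = 8.6e-13). The Ccr8 promoter was lower in spleen NK (-1.54 ± 0.27 (SE, adjusted p = 3.4e-07)).

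The interaction asked whether the ILC1 minus NK difference in liver departs from that between salivary gland ILC1 and spleen NK, a pair that differs in organ as well as cell type. It was positive at 3358 promoter peaks and negative at 1353 (18.7% and 7.52%, against 16.6% and 13.5% of all peaks). TMM over promoter peaks alone gave 1976 and 2065, and without liver NK replicate 1 the positive calls numbered 1893. Of the 600 promoter peaks that were 2-fold higher in pooled ILC1, 330 had a called interaction, and of the 748 lower ones 463. Cmklr1, the chemerin receptor of NK cells, shows the pattern at its peak chr5:113626005-113627232, with 13.3 and 7.31 CPM in liver ILC1 and 1.64 and 2.18 CPM in salivary gland ILC1, against 63.4 and 52.4 CPM in spleen NK and 38.4 and 37.6 CPM in liver NK. Both ILC1 groups were below both NK groups, and the fall was deeper outside the liver, with a pooled difference of -3.40 ± 0.15 (SE, adjusted p = 7.4e-103) and an interaction of 2.95 ± 0.31 (SE, adjusted p = 2.5e-18). For Cxcr6 the interaction was -0.43 ± 0.41 (SE, adjusted p = 0.45) and for Il2 -0.16 ± 0.28 (SE, adjusted p = 0.71), both not called.

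Large differences were rare at CpG-rich promoters. In the pooled comparison 24 of 3661 high-CpG promoters that hold the start of their gene (0.656%) were called at 2-fold in either direction. The share was 1.35% of 2814 intermediate promoters, 8.75% of low-CpG promoters (101 of 1154), 12.6% of promoter peaks without a listed start and 21.2% of non-promoter peaks. Leaving out 1 library at a time gave 19 to 28 high-CpG and 99 to 114 low-CpG promoters. The order was the other way round between the NK groups, where 21.0% of high-CpG, 16.0% of intermediate and 4.07% of low-CpG promoters were called at 2-fold higher in spleen NK, in the comparison whose split depended on scaling. Klf2 was one of the 6 high-CpG promoters called 2-fold lower in ILC1. Cxcr6, Gzmc, Il2, Ltb, Lta, Cma1, Gzmm and Cmklr1 all belong to the low-CpG class.

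**Figure D4:**
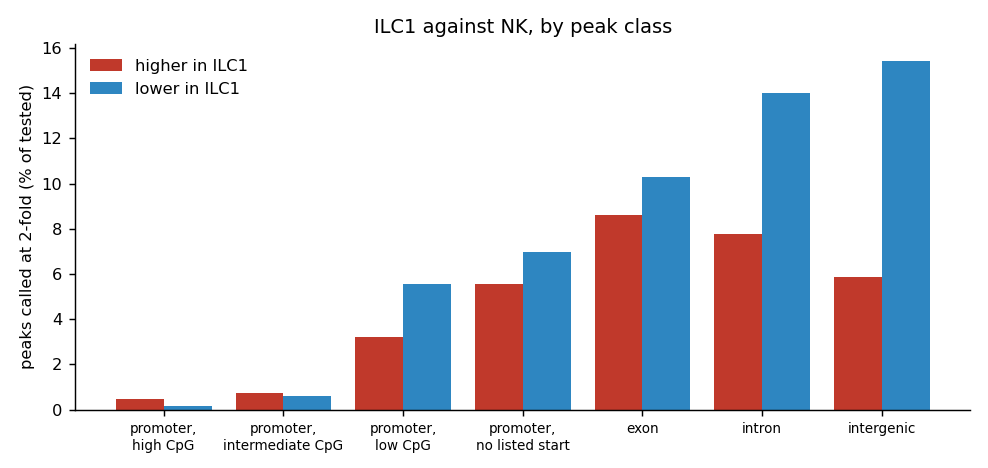
Share of tested peaks, in %, called at 2-fold or more and higher (red) or lower (blue) in pooled ILC1 against pooled NK, by class of peak. High-CpG promoters total 0.656% and low-CpG promoters 8.75%, and exon, intron and intergenic peaks have the highest shares.

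Promoter peaks of 1 gene did not always move together. Of 3053 genes with 2 or more tested promoter peaks, 152 with a named symbol had peaks called in opposite directions in the pooled comparison, 12 of them with both at 2-fold. Ddx31, an RNA helicase gene, had 20.5 and 21.8 CPM in liver ILC1 and 31.2 and 29.7 CPM in salivary gland ILC1, against 3.77 and 5.47 CPM in spleen NK and 6.79 and 7.72 CPM in liver NK at one peak. Its other peak had 3.44 and 1.37 CPM in liver ILC1 and 1.85 and 2.02 CPM in salivary gland ILC1, against 8.18 and 6.25 CPM in spleen NK and 6.53 and 5.15 CPM in liver NK. The first was higher in every ILC1 library (2.14 ± 0.17 (SE, adjusted p = 1.4e-35)) and the second lower in every one (-1.63 ± 0.27 (SE, adjusted p = 2.5e-08)). Snx29 had 5 peaks, among them one higher (2.53) and one lower (-1.21) in ILC1, and the peak over its start was not called (0.01). RNA of Ddx31 and Snx29 was not called (adjusted p = 0.85 and 0.67). The other genes at the top of this order were Pym1, RP23-282M20.5, Lrrfip2 and Sae1.

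RNA of the same genes was set beside the liver comparison, with the mean of the 3 liver ILC1 populations against liver NK and the strongest promoter peak per gene. RNA was called higher in ILC1 for 379 and lower for 394 of the 10057 tested genes with a promoter peak, against 2.90% higher and 3.02% lower over all 17124 genes. With the mouse as a block the counts were 722 and 963. Of 126 tested genes whose promoter was at least 2-fold higher in liver ILC1, RNA was higher in 62 (49.2%) and lower in none, with a median log2 RNA difference of 2.07. Of 97 genes whose promoter was at least 2-fold lower, RNA was lower in 40 (41.2%) and higher in none, with a median of -1.61. In the opposite direction 2 of the 126 and 1 of the 97 genes had an unadjusted p below 0.05 by edgeR, and DESeq2 on RNA called 0 and 1. With the mouse as a block, which pairs the RNA libraries, RNA was higher in 74 of the 126 and lower in 2, and lower in 42 of the 97 and higher in none. Of 8169 genes whose promoter was not called, RNA was higher in 191 and lower in 316. Leaving out a single liver ATAC-seq library changed both the number of genes with a 2-fold promoter and the share with RNA in the same direction. With TMM over promoter peaks alone RNA was higher in 37 of 60 genes (61.7%) and lower in 54 of 185 (29.2%). Without the 3 ILC1 RNA libraries high in hepatocyte markers it was higher in 62 of 125 and lower in 38 of 98. Across all 10054 genes the Spearman correlation of the 2 differences was 0.116, and among 884 genes with a low-CpG promoter it was 0.267. With RNA of DP alone against NK, the ILC1 population that the ATAC-seq cell type field names, the correlations were 0.195 and 0.317. Genes of 1 library share its depth and are not independent.

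**Figure D5:**
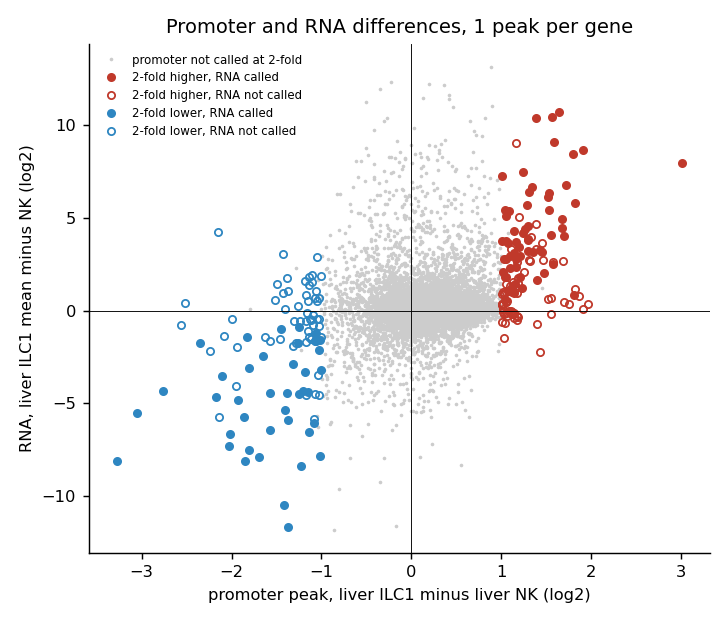
Difference in promoter accessibility (x, log2) and in RNA (y, log2), liver ILC1 minus liver NK, for the strongest promoter peak of each gene. Coloured points have promoters called at 2-fold, filled where RNA was called too; 62 filled points lie at upper right and 40 at lower left, and no filled point lies in the other corners.

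RNA of several genes named for their promoters differed in the same direction, although RNA of Fyco1, Stat4 and Cenpn was not called. Cxcr6 RNA was 576 to 1642 CPM (median 1020.4 CPM) in the 11 liver ILC1 libraries, against 6.60, 1.35, 4.40 and 3.58 CPM in the 4 liver NK libraries. Its log2 difference was 7.99 ± 0.46 (SE, adjusted p = 1.9e-07). Zfp683 RNA was 54.6 to 207 CPM (median 103 CPM) in the 11 liver ILC1 libraries, against 1.07, 0.261, 1.07 and 1.63 CPM in the 4 liver NK libraries. Il2 RNA was 3.46 to 39.4 CPM (median 20.1 CPM) in the 11 liver ILC1 libraries, against 0.206, 0, 0 and 0 CPM in the 4 liver NK libraries. All ILC1 libraries were above all NK libraries for these genes. Lta RNA was 1.85 to 11.6 CPM (median 8.20 CPM) in the 11 liver ILC1 libraries, against 0, 0, 0.0487 and 0 CPM in the 4 liver NK libraries, and Tnf RNA differed by 4.39 ± 0.76 (SE, adjusted p = 0.002). Gzmc RNA was 10.2 to 496 CPM (median 31.3 CPM) in the 11 liver ILC1 libraries, against 2.87, 1.43, 1.01 and 3.92 CPM in the 4 liver NK libraries, a wide range, since the DP, FMSP and DN populations are defined by granzyme C. On the NK side, S1pr5 RNA was 3.24 to 99.8 CPM (median 15.4 CPM) in the 11 liver ILC1 libraries, against 872, 440.4, 417 and 310.0 CPM in the 4 liver NK libraries. These NK cells were sorted by the S1pr5 reporter, so a difference in S1pr5 RNA is built into the gate. Cma1 RNA differed by -7.32 ± 0.55 (SE, adjusted p = 1.5e-06), Eomes by -5.36 ± 0.54 (SE, adjusted p = 1.7e-05) and Klf2 by -4.46 ± 0.32 (SE, adjusted p = 1.1e-06). Il7r RNA was 30.3 to 204 CPM (median 127 CPM) in the 11 liver ILC1 libraries, against 6.45, 6.61, 3.03 and 2.96 CPM in the 4 liver NK libraries, a difference of 4.59 ± 0.62 (SE, adjusted p = 2.4e-04), while its start peak was not called in liver (0.66 ± 0.27 (SE, adjusted p = 0.067)) and its other peak was higher (1.30 ± 0.24 (SE, adjusted p = 4.6e-06)).

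Seen from RNA, the 2 directions differed in how often the promoter moved too. Of the 379 RNA-higher genes 186 (49.1%) had a promoter called higher and 2 called lower. Of the 394 RNA-lower genes 62 (15.7%) had a promoter called lower and 16 called higher. By promoter class the share of RNA-lower genes with a lower promoter was 2.46% in the high-CpG class (3 of 122), 9.52% in the intermediate class (8 of 84) and 32.1% in the low-CpG class (18 of 56). Over all promoters of these classes, 1.07%, 1.78% and 6.41% were called lower, so the class backgrounds ran in the same order. For RNA-higher genes the shares were 41.8% (28 of 67), 47.0% (39 of 83) and 45.6% (36 of 79), against 17.9%, 14.6% and 11.5% called higher over all promoters of the classes. The median promoter log2 difference in liver was 0.19 under the scaling used and 0.00 with TMM over promoter peaks alone. The 2 directions thus had unequal backgrounds, 13.7% higher and 4.86% lower over all promoter peaks. By the strongest peak of each of 10054 genes tested in RNA, 126 were called higher at 2-fold and 1474 below 2-fold. Called lower were 97 at 2-fold and 188 below it, so the backgrounds were more unequal by gene than by peak.

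Many genes changed in RNA with flat promoters, that is with every promoter peak uncalled and within 0.5 on the log2 scale in liver. Among genes called in RNA and reaching 10 CPM these were 117 of 352 RNA-higher (33.2%) and 219 of 373 RNA-lower genes (58.7%), against 5113 of all 7625 tested genes at that level with a promoter peak (67.1%). Both directions had fewer flat promoters than this background, and promoter calls in liver were themselves unequal in the 2 directions. Pald1, which encodes the phosphatase-like protein paladin, had RNA of 0.141 to 10.9 CPM (median 4.47 CPM) in the 11 liver ILC1 libraries, against 124, 82.4, 82.4 and 54.4 CPM in the 4 liver NK libraries. The populations did not overlap, with a difference of -3.90 ± 0.58 (SE, adjusted p = 5.5e-04). The peak over its start (chr10:61381263-61383750) had 34.7 and 36.1 CPM in liver ILC1, against 38.5 and 35.5 CPM in liver NK. These promoter values overlapped, with a difference of -0.07 ± 0.19 (SE, adjusted p = 0.85). Irf8 RNA was 185 to 417 CPM (median 209 CPM) in the 11 liver ILC1 libraries, against 3258, 1356, 1795 and 1379 CPM in the 4 liver NK libraries, a difference of -2.85 ± 0.27 (SE, adjusted p = 9.0e-06), while its 4 peaks lay between -0.42 and 0.40 in liver. Cdh22, a cadherin gene, and Lair1, an inhibitory collagen receptor gene, were also in this group, as were Rap1gap2, Pxylp1, Borcs7 and Cela1. On the other side, Cd3g, a chain of the T cell receptor complex, had RNA of 156 to 1153 CPM (median 558 CPM) in the 11 liver ILC1 libraries, against 8.72, 2.07, 2.58 and 16.7 CPM in the 4 liver NK libraries. Its promoter had 6.73 and 8.97 CPM in liver ILC1, against 7.05 and 5.63 CPM in liver NK and a difference of 0.31 ± 0.34 (SE, adjusted p = 0.56). Ccr8, a chemokine receptor gene, had RNA of 2.42 to 37.6 CPM (median 9.72 CPM) in the 11 liver ILC1 libraries, against 0, 0, 0 and 0 CPM in the 4 liver NK libraries, while its start peak had 15.9 and 19.6 CPM in liver ILC1, against 17.0 and 14.0 CPM in liver NK. The liver values of the promoter overlapped (0.20 ± 0.24 (SE, adjusted p = 0.62)). Clec2l, Mrgpra9, Cd5, Rasgrf1, Asphd2 and Edaradd completed this side. Cd3g and Cd5 belong to the T cell markers, of which 9 of 14 were higher in RNA, and the part of T cells in these values was not tested.

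In a few genes promoter and RNA were called in opposite directions. Inpp4b RNA was 39.6 to 452 CPM (median 324 CPM) in the 11 liver ILC1 libraries, against 0.919, 3.53, 6.41 and 1.74 CPM in the 4 liver NK libraries, while 1 of its 10 promoter peaks was lower in liver ILC1 (-0.80 ± 0.30 (SE, adjusted p = 0.045)) and 2 others were higher (1.21 and 0.89). Ksr1, a scaffold of the MAP kinase pathway, had a lower promoter (-1.01 ± 0.31 (SE, adjusted p = 0.011)) and higher RNA (1.56 ± 0.38 (SE, adjusted p = 0.022)). Dusp5, a phosphatase that switches off ERK, had a higher promoter, with 67.0 and 91.7 CPM in liver ILC1, against 46.1 and 62.4 CPM in liver NK and a difference of 0.56 ± 0.21 (SE, adjusted p = 0.039). Its RNA was 77.1 to 159 CPM (median 107 CPM) in the 11 liver ILC1 libraries, against 469.5, 227, 247 and 240.3 CPM in the 4 liver NK libraries, a difference of -1.45 ± 0.19 (SE, adjusted p = 1.8e-04). Rgl1, Sbk1, Rarg, Pde2a and Rasa3 had the same combination as Dusp5, and Lypd6b, Smyd2, Arnt2 and Nek6 that of Ksr1.

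The strongest promoter peaks per kb were assigned to the predicted genes Gm10800, Gm10801, Gm10222 and Gm26917 and to RP23-456L15.4. Gm10800 had 10556 and 9512 CPM in liver ILC1 and 5197 and 3549 CPM in salivary gland ILC1, against 4099 and 3019.5 CPM in spleen NK and 8172 and 10895 CPM in liver NK. Its values were higher in the liver groups than in the salivary gland and spleen groups. Together with Gm21738 these peaks, which are strong in every library and were chosen after their values were seen, took 0.781% to 2.44% of all counts. With them left out the promoter share differed by 0.723 points between ILC1 and NK libraries.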

How the data were processed

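For ATAC-seq the authors deposited read counts per peak in 1 peak set shared by the 8 libraries, and for RNA-seq expected counts of 35645 genes in 15 libraries, which the file holds as whole numbers. Per the submitters' processing notes the tools were Bowtie2, SAMtools, MACS2, Salmon 1.6 and DESeq2 with the build mm10; their settings, and the rule that assigns a peak to a gene and a type, are not given in the sources used here. Neither table gives strand or the treatment of reads that match near-identical genes, so values within the granzyme, Ly49 and repeat-like families are uncertain.

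Both tables were tested here in R 4.3.3 with edgeR 4.0.16, by its quasi-likelihood test (filterByExpr with a minimum count of 10, TMM scaling, robust fits), in 1 fit per assay over all libraries, with Benjamini-Hochberg adjustment over all 51292 tested peaks or 17124 genes. Residual degrees of freedom were 4 for ATAC-seq and 11 for RNA. Alternatives used DESeq2 1.42.0, limma 3.58.1 with cyclic loess, other scalings, no count filter, thinning, leaving out each library and a replicate block. A further alternative, without 6 repeat-rich peaks, was added after seeing the data. RNA mouse numbers pair samples, since the labels give the mouse of each library. The scripts were tested on simulated counts.

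Named peaks were, per comparison, the called promoter peaks with the highest and lowest log2 difference (up to 10 each, or 6 between organs) that reach 5 CPM, do not overlap between libraries and have a symbol other than a predicted gene, the members of the gene lists, the genes with opposite promoter peaks, the genes with RNA changes and flat or opposite promoters, and the 5 strongest peaks per kb. A gene that this rule picked is not reported here, though the counts of its list include it. Members, lists and rules were chosen with earlier results of these data known. A peak holds a RefSeq start where the listed start itself lies between the peak's ends. Sharing another base of the 300-base window is not enough. Errors are standard errors of the fit, or SD over libraries where so stated.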

Additional observations from a re-analysis of the deposited data

Results flagged for a closer look

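At 63 promoter peaks that the text names or that the naming rule picked, the ILC1 minus NK difference in liver departed from that between salivary gland ILC1 and spleen NK, by the interaction term of the edgeR fit with adjusted p below 0.05. The values are log2 differences, liver minus the other organs, so a positive value means that ILC1 stood higher against NK, or less far below it, in liver. For genes of the lists the positive values were 2.90 and 1.95 at Il7r, 2.79 and 1.79 at Klf3, 2.11 at Tnfrsf25, 2.07 and 1.14 at Cma1, 2.00 and 1.30 at Tcf7 and 1.54 at S1pr1. Smaller positive values of list genes were 1.38 at Gzma, 1.24 at S1pr5, 1.01 at Nkg7, 1.00 at Klf2 and 0.90 at Tbx21. Negative values of list genes were -1.95 at Zeb2, -1.83 and -1.30 at Nr4a2, -1.38 at Gzmc, -1.02 at Itga1, -0.97 at Stat4 and -0.88 at Zfp683. Further down they were -0.70 at Eomes. Outside the lists, the positive values were led by 2.95 at Cmklr1, 2.93 at Mynn, 2.83 at Nlrp1b, 2.66 at Immt, 2.62 at RP24-212B22.4 and 2.31 at Tamm41. Next came 2.30 at Tph1, 2.30, 1.79, 1.48 and 1.20 at Tex14, 2.21 at Hmox2, 2.19 at Mybpc1, 2.13 at Ift140 and 2.11 at Fkbp10. These were followed by 1.92 at Cenpn, 1.88 at Tmem92, 1.69 at Ntrk3, 1.57 at Txndc5, 1.57 at Pcx and 1.43 at RP23-282M20.5. Smaller still were 1.39 at P2rx7, 1.34 at Ski, 0.81 at Mef2c and 0.81 at Prex2. Negative values outside the lists were led by -5.48 at Usp28, -4.93 at Atg7, -3.41 at Mthfd1, -3.20 at Tom1l2, -3.17 at Hlcs and -2.98 at Dync1li2. After them came -2.92 at Bnip1, -2.92 at Snx29, -2.81 at Atp6v1e1, -2.75 at Mir684-2, -2.06 at Fyco1 and -2.02 at Ehd1. The last were -1.46 at Pdxdc1, -1.24 at Lim2 and -1.03 at N4bp1. The organs differ in depth and the second pair joins 2 organs, so organ, depth and cell type cannot be told apart in these values.

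Single RNA libraries stood far from the others of their population for 4 named genes, by the gap to the nearest library over the range of the population. For Il2 these were DP ILC1 mouse 5 with 26.6 CPM and NK mouse 1 with 0.206 CPM, where the other 3 NK libraries were at 0. For Irf8 it was FMSP ILC1 mouse 3 with 399 CPM, for Gzmb NK mouse 4 with 1176 CPM and for Ccr8 FMSP ILC1 mouse 3 with 37.6 CPM. Chance marks about 1 in 20 groups of this size in this way.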

How the results depend on the processing

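Requiring a 2-fold change as well left 600 higher and 748 lower promoter peaks in pooled ILC1, 340 and 386 in liver, 880 and 1689 in salivary gland against liver ILC1, 1836 and 1021 in spleen against liver NK, and 1401 positive interactions. Scaling moved the 2 directions against each other. TMM over promoter peaks alone called 1364 higher and 1552 lower in liver (173 and 657 at 2-fold), 571 higher at 2-fold in salivary gland ILC1, 3983 and 4230 in spleen NK (68 and 2524 at 2-fold), and 1976 positive and 2065 negative interactions. With library totals alone salivary gland ILC1 had 3101 and 4306 calls (495 higher at 2-fold) and spleen NK 4622 and 3771 (112 and 2284 at 2-fold). Cyclic loess in limma called 1068 higher in liver, 2916 higher and 1076 lower at 2-fold in salivary gland ILC1, and 1321 and 1050 in spleen NK (175 and 267 at 2-fold). The cause was not tested.

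Leaving out 1 library at a time gave 2119 to 4066 higher and 2096 to 3235 lower peaks in pooled ILC1 (518 to 677 and 755 to 917 at 2-fold). The ranges were 668 to 3720 and 521 to 948 in liver (215 to 526 and 329 to 565), 2660 to 5908 and 2016 to 2863 in salivary gland ILC1 (797 to 1221 and 1366 to 2066), and 5079 to 8252 and 843 to 1939 in spleen NK (1225 to 2909 and 673 to 1139). Interactions numbered 1893 to 4298 positive and 1005 to 1351 negative. With 1 library left in a group, that library is assumed to vary like the other groups. The high-CpG count was 19 to 28 and the low-CpG count 99 to 114.

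Genes with a 2-fold higher liver promoter and higher RNA numbered 37 with TMM over promoter peaks alone and 40 to 75 without 1 library, and those with a lower promoter and lower RNA 34 to 44. The number of tested genes with a 2-fold liver promoter changed with these settings too, so such counts are not shares. RNA calls were 792 and 608 with DESeq2 and 748 and 1070 in mice 4 to 6 alone. DP alone against NK gave 212 lower, and leaving out 1 RNA library gave 283 to 423 higher and 274 to 534 lower. With the mouse as a replicate block, which the labels' mouse numbers allow, the counts were 722 and 963. The promoter share differed by -0.0140 points over peaks of at least 10 mean CPM, and by -1.25 to 2.61 without 1 library.

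ATAC-seq libraries are numbered as mouse replicate 1 and 2 in every group, without a statement that 1 mouse gave all 4. Same-numbered libraries did not deviate together (r from -0.120 to 0.179 over 12 pairs). The replicate block gave 3624 and 2503 calls in pooled ILC1, 2568 and 892 in liver, 5363 and 2873 in salivary gland ILC1, 7997 and 1878 in spleen NK and 3494 and 1390 interactions.

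For 110 results on single peaks, 1731 of the values under an alternative kept the direction and the call, 14 lost the call, 9 gained it and 6 changed sign. The 6 belong to peaks that were not called, namely Pald1 (0.126 with cyclic loess), Cdh22 (0.0286 with cyclic loess, 0.109 thinned to the smallest total and -0.251 to 0.0983 without 1 library) and Zeb2 (-0.0513 thinned and -0.0185 to 0.276 without 1 library). Calls were lost under some settings at Ccr8, Tnfrsf25, Tcf7, Prf1 and Mir294. The cause was not tested. Peaks of a few CPM in the shallow liver libraries rest on few reads, and 4 residual degrees of freedom limit what the ATAC-seq test can find.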
